A study of Mus musculus with 10 samples.

Results

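Semaphorins, plexins, neuropilins, ephrins, Eph receptors, Slits, Robos and netrins with their receptors form the guidance families, described here in mouse urogenital systems with 1 or both Wnt9b alleles altered. Members were chosen by gene symbol alone, though with earlier results of these data known. They were every probe set of the array with a single symbol starting with Sema3 to Sema7, Plxn, Epha, Ephb, Efna or Efnb, or naming a neuropilin, Slit, Robo, netrin 1 or 4, Dcc, an Unc5 gene or Neo1. These were 155 of 45101 probe sets and 68 of 18193 genes. The homozygous embryos carry the genotype label Wnt9bcneo/cneo and the title CNEO. The controls carry the genotype label Wnt9bcneo/+, by which they too have 1 cneo allele, but are titled WT. All embryos were taken at embryonic day 15.5, and strain and sex are not given in the labels. Each genotype had 5 RNA pools of 1 to 2 urogenital systems, hybridized to 1 Affymetrix array each. The cneo allele is described no further in the labels, so how much Wnt9b function it leaves is not stated.

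Guidance molecules were named for steering axons, and the same ligands and receptors also direct vessels, migrating cells and branching epithelia. Semaphorins signal through plexins, the secreted class 3 members mostly with a neuropilin as co-receptor; membrane-bound ephrins signal through Eph receptor tyrosine kinases; Slits signal through Robos; and netrins signal through Dcc, neogenin and the Unc5 receptors. In the mouse kidney Slit2 and Robo2 are known to keep the ureteric bud to a single site of outgrowth, and sympathetic neurons near the kidney and adrenal gland use neuropilins and plexins to find their path. Wnt9b, which the nephric duct and ureteric bud secrete, signals to the neighbouring mesenchyme.

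The deposited values are linear intensities whose trimmed mean was 500 on every array. Intensities under 16 were set to 16 before log2 was taken, each gene was represented by its brightest probe set, and genotypes were compared with limma across all genes. Wnt9b had intensities of 103, 179, 47.8, 107 and 201 in homozygous pools 1 to 5, against 135, 121, 143, 126 and 140.5 in control pools 1 to 5, a log2 difference of -0.23 ± 0.36 (SE; limma adjusted p = 0.803). Some homozygous pools were above and some below all 5 controls, so this probe set does not check the genotype labels. Homozygous pool 5 and control pool 1 stood apart by a 3' to middle ratio of actin, a sign of RNA integrity, of 97.7 and 94.8, against 9.87 to 33.1 on the other 8 arrays. Xist was high in homozygous pools 3, 4 and 5 alone, at 13.8 to 14.3 on the log2 scale against 5.13 to 6.07 on the other arrays. Sex is not given in the labels. As no control pool was Xist-high, what sets these 3 pools apart is partly confounded with genotype. The share of probe sets not above 16 ran from 19.9% to 21.1% in homozygous pools and from 22.2% to 23.0% in control pools. The mean log2 level of 16 measured neuron and chromaffin cell markers ran from 9.34 to 10.5 in homozygous pools and from 5.64 to 8.90 in control pools, and that of 6 smooth muscle markers from 9.22 to 12.1 and from 8.003 to 10.7. Positive differences were found for 15 of the 16 and 6 of the 6, and 0 passed the test. The marker mean of Schwann and satellite glia ran from 8.03 to 8.996 in homozygous pools and from 6.20 to 8.43 in control pools, with 5 of 6 differences positive, and that of skeletal muscle from 8.70 to 11.2 and from 5.61 to 11.5, with 8 of 8 positive; 0 genes of either passed. Markers passed in 2 lists: the macrophage genes Adgre1 and Csf1r rose, as 2 of 6, and 6 of 8 proximal tubule genes fell. The mean of 9 endothelial markers ran from 8.23 to 8.597 in homozygous pools and from 7.99 to 8.92 in control pools. The mean of 8 adrenal cortex markers ran from 7.83 to 11.1 in homozygous pools and from 4.85 to 10.5 in control pools, and was near the floor in control pools 1 and 2. Of these markers 8 of 8 had a positive difference and 0 passed. The mean of 4 testis markers was 9.16 and 9.76 in homozygous pools 1 and 2. It was 9.36 and 9.37 in control pools 3 and 5, and 6.02 to 6.78 on the other arrays. No marker of these lists, or of the kidney, bladder and testis lists, was at the floor on all arrays, apart from 1 macrophage gene. In whole organs, fewer cells of a type and less RNA per cell cannot be told apart.

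Of the 68 guidance genes 2 rose and 0 fell in homozygous pools at an adjusted p under 0.05. The netrin receptor gene Unc5d and the transmembrane semaphorin gene Sema6d were the 2 that rose. Over all 18193 genes 0.967% passed, 0.539% higher and 0.429% lower, against 2.94% of the guidance genes. Unadjusted p was under 0.05 for 15 guidance genes, 10 higher and 5 lower, or 22.1% against 15.7% of all genes. The pools of the 2 genotypes did not overlap for 6 guidance genes, or 8.82% against 4.71% of all genes. Unc5d, Sema6d, Epha6 and Efna3 were the 4 of them with every homozygous pool higher, and Robo2 and Slit1 the 2 with every homozygous pool lower. A log2 difference of at least 1 in size was seen in 7 guidance genes, 6 higher and 1 lower, or 10.3% against 5.55% of all genes. The median difference was 0.027 over the guidance genes and 0 over all genes. Differences of at most 0.25 in size were found for 29 of the 68, and the median size was 0.33 over the guidance genes and 0.20 over all genes. By family the median size was smallest for the ephrin-B ligands, at 0.031, and largest for the pair of neuropilins, at 0.90. When every one of 45037 probe sets was fitted by itself, 0.231% passed and 0 guidance probe sets did, with Unc5d at an adjusted p of 0.0643 and Sema6d at 0.0725.

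**Figure D1:**
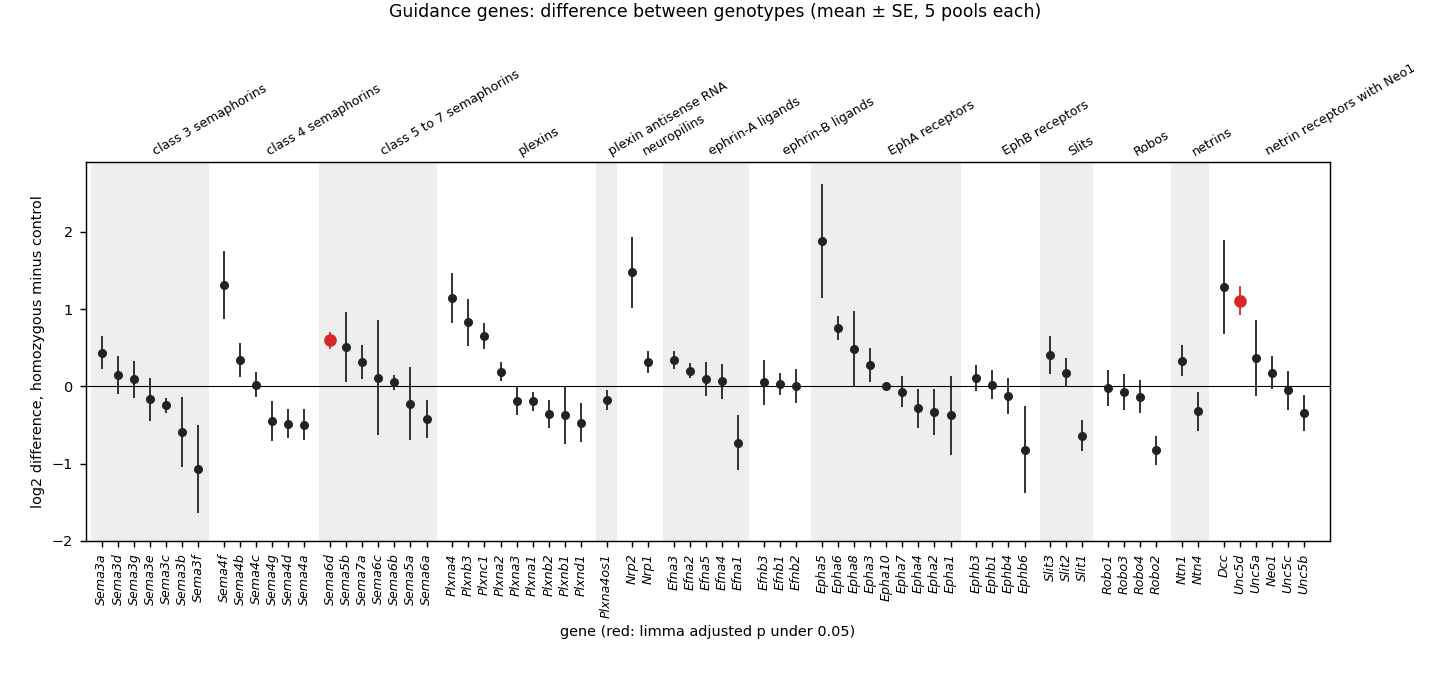
Log2 difference (homozygous minus control) of all 68 guidance genes, grouped by family, as points with standard errors from limma over 5 pools per genotype. The 2 genes past the threshold, Sema6d and Unc5d, are red; Epha5 has the largest positive difference, 1.88, and Sema3f the largest negative one, -1.07.

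Unc5d encodes a netrin receptor of the Unc5 family, whose members carry an intracellular death domain and mediate repulsion by netrins. It lies at chromosome 8, 28646717 to 29219671 (GRCm38.p6) and has a single probe set. Its intensities were 45.4, 59.5, 37.7, 59.0 and 68.1 in homozygous pools 1 to 5, against 25.9, 28.7, 19.5, 21.0 and 28.9 in control pools 1 to 5. Every homozygous pool was above every control pool, and the log2 difference was 1.11 ± 0.19 (SE; limma adjusted p = 0.0404), 2.16-fold. These are dim values, within a few steps of the floor of 16, and the share of probe sets at the floor also separated the genotypes; its part in the result was not tested. With a floor of 32 the difference was 0.72 and with quantile normalization 0.97, and in both fits the call was lost (adjusted p = 0.0634 and 0.0568). Leaving out 1 pool gave differences of 1.02 to 1.23, with an adjusted p of 0.0312 without control pool 2 and of 0.0512 to 0.118 without any other pool. With the neuron marker mean as a covariate the difference was 1.15 and with the smooth muscle mean 1.22, both close to the value without a covariate, and neither passed (adjusted p = 0.467 and 0.381). The neuron mean did not overlap between the genotypes, at 9.34 to 10.5 against 5.64 to 8.90, so that fit cannot cleanly tell it from genotype. Neither covariate left any gene past the threshold over all genes.

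Sema6d encodes a transmembrane semaphorin that binds A-type plexins and is known from heart and axon tract development. It lies at chromosome 2, 124089943 to 124667789. Its brightest probe set had intensities of 4885, 4236, 6038, 5405 and 5234 in homozygous pools 1 to 5, against 2987, 4032, 3414, 3184 and 3441 in control pools 1 to 5, all far above the floor. The log2 difference was 0.59 ± 0.11 (SE; limma adjusted p = 0.0473), 1.51-fold, and the groups did not overlap. The 3 dimmer probe sets differed by 0.71, 0.54 and 0.26 in the same direction. The first of these was at the floor on 5 arrays, so its size depends on the floor, and the groups of the other 2 overlapped. Leaving out 1 pool gave differences of 0.54 to 0.66. The call held without homozygous pool 2 and without control pool 2 (adjusted p = 0.0317 and 0.0254), and without any of the other 8 pools adjusted p ran from 0.0852 to 0.136. With the neuron marker mean as a covariate the difference was 0.35 and with the smooth muscle mean 0.40, and neither passed (adjusted p = 0.467 and 0.473). The limit given for Unc5d holds here too, as the neuron mean and genotype cannot be cleanly told apart. Leaving out homozygous pool 5 and control pool 1, whose actin ratio was high, gave 0.54 for Sema6d and 1.04 for Unc5d, with adjusted p of 0.112 and 0.0930. Without the 3 Xist-high pools these were 0.42 and 1.09, with adjusted p of 0.418 and 0.241.

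The RefSeq promoter table (GRCm38.p6) lists 2 start sites for Sema6d, and the 250 bases before each are printed because Sema6d is 1 of the 2 genes that rose; capitals mark the core of the TCF/LEF site, CTTTGA or CTTTGT on either strand, where the transcription factors of canonical Wnt signalling bind. The first is chr2:124089719-124089968, plus strand, and the second chr2:124653331-124653580, plus strand. The last 26 bases of the first window and all of the second lie inside the outer bounds of the gene given above.
Sema6d, first start site: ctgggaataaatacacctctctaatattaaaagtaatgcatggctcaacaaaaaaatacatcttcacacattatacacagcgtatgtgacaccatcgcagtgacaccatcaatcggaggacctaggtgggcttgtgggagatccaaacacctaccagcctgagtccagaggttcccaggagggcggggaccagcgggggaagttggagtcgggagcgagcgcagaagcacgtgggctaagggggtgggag
Sema6d, second start site: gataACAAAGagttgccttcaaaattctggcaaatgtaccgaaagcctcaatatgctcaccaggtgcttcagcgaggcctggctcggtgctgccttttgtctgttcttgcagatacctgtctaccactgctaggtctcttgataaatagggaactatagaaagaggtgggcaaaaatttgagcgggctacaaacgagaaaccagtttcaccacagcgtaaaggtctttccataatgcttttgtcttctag
The first window holds no such core and the second holds 1, starting 246 bases before the start site. The core was found in 27.6% of 32851 promoter windows of this length and in 15.1% of 73 windows of 57 guidance genes. A match is a description of letters and not of binding.

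Among the secreted class 3 semaphorins, 0 of 7 passed, 3 differences were positive and 4 negative, with a median of -0.17. Sema3f, the ligand of neuropilin 2, had the largest negative difference of all members, -1.07 ± 0.57 (SE; limma adjusted p = 0.421). Its intensities were 368, 373, 104, 332 and 54.6 in homozygous pools 1 to 5, against 252, 518, 506, 476 and 341 in control pools 1 to 5. Homozygous pools 3 and 5 were the lowest, while pools 1, 2 and 4 lay inside the control range. Without the 3 Xist-high pools, to which both low pools belong, the difference was -0.12. The dimmer probe sets of Sema3f differed by -1.28 and -0.092. They were at the floor on 3 and 7 arrays, so the size of these differences depends on the floor. Sema3c, which guides cells of the outflow tract of the heart, was far above the floor in every pool, at 4919.7 to 6294 in homozygous pools and 5909 to 7689 in control pools, and differed by -0.25 ± 0.10 (SE; limma adjusted p = 0.278). Sema3a, the ligand that repels sympathetic and sensory axons through neuropilin 1, differed by 0.44 ± 0.21 (SE; limma adjusted p = 0.372), with groups that overlapped. A second probe set differed by 0.37 (limma adjusted p = 0.370 over all probe sets). Its groups only just separated, with homozygous pool 1 at 114.28 and control pool 2 at 113.34. The other 4 were Sema3b (-0.59 ± 0.46 (SE)), Sema3d (0.14 ± 0.24 (SE)), Sema3e (-0.17 ± 0.28 (SE)), the ligand of plexin D1, and Sema3g (0.088 ± 0.24 (SE)).

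The membrane-bound class 4 semaphorins had no gene past the threshold among 6, and 3 with an unadjusted p under 0.05. Sema4f, found on neurons, had intensities of 377, 165, 545, 324 and 361 in homozygous pools 1 to 5, against 139.6, 337, 82.1, 124 and 88.7 in control pools 1 to 5. Its log2 difference was 1.31 ± 0.44 (SE; limma adjusted p = 0.185); control pool 2 reached the level of the homozygous pools and homozygous pool 2 that of the controls. Sema4d, the ligand of plexin B1, differed by -0.48 ± 0.19 (SE; limma adjusted p = 0.25), with 582 to 1007 in homozygous pools and 770.4 to 1457 in control pools. Sema4a differed by -0.50 ± 0.20 (SE; limma adjusted p = 0.275), Sema4g by -0.45 ± 0.26 (SE), Sema4b by 0.34 ± 0.22 (SE) and Sema4c by 0.023 ± 0.16 (SE).

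In classes 5 to 7, Sema6d was the 1 of 7 genes that rose. Sema6a, a transmembrane ligand of plexins A2 and A4, differed by -0.42 ± 0.25 (SE; limma adjusted p = 0.473). Sema7a, which is anchored by a lipid and binds plexin C1, differed by 0.32 ± 0.22 (SE), Sema5b by 0.50 ± 0.45 (SE), Sema5a by -0.22 ± 0.47 (SE) and Sema6c by 0.11 ± 0.75 (SE). Sema6b was at the floor on 4 arrays of each genotype, so that it has no measured level there.

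Of the 9 plexin genes, the signalling receptors of semaphorins, 0 passed, 4 differences were positive and 5 negative. Plxnc1, the receptor of Sema7a, had intensities of 825, 1034, 820.3, 552 and 856 in homozygous pools 1 to 5, against 485, 441, 590.3, 462 and 597 in control pools 1 to 5. Homozygous pool 4 alone fell within the control range, and the difference was 0.65 ± 0.17 (SE; limma adjusted p = 0.0991); 5 further probe sets, 4 of them at the floor on several or all arrays, lay between -0.12 and 0.43. Plxna4, a receptor for Sema3a and Sema6a on sympathetic and sensory axons, had intensities of 214, 102, 260.2, 143 and 271 in homozygous pools 1 to 5, against 87.1, 120.0, 53.4, 89.0 and 83.9 in control pools 1 to 5. Its difference was 1.14 ± 0.32 (SE; limma adjusted p = 0.126), and its second probe set differed by 1.02. Plxnb3 differed by 0.83 ± 0.30 (SE; limma adjusted p = 0.226), with 67.4 to 166 in homozygous pools and 38.4 to 77.9 in control pools. The endothelial plexin gene Plxnd1 differed by -0.47 ± 0.25 (SE), Plxnb2 by -0.36 ± 0.18 (SE) and Plxnb1 by -0.37 ± 0.37 (SE). Plxna1 (-0.19 ± 0.12 (SE)), Plxna2 (0.19 ± 0.13 (SE)) and Plxna3 (-0.19 ± 0.19 (SE)) lay closer to 0. The symbol rule also takes in Plxna4os1, an antisense RNA of the Plxna4 locus, which was at the floor on 4 homozygous and 3 control arrays.

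Nrp2, the neuropilin that binds Sema3f and vascular endothelial growth factor C, had the second largest positive difference of the members. Its brightest probe set had intensities of 3299, 1068, 4122, 2809.9 and 3648 in homozygous pools 1 to 5, against 922, 2512, 679, 733 and 782 in control pools 1 to 5. The difference was 1.47 ± 0.46 (SE; limma adjusted p = 0.162), 2.78-fold, and its other 3 probe sets differed by 1.37, 1.25 and 1.09. Of the homozygous pools 4 lay above all controls; homozygous pool 2 was far lower and control pool 2 far higher than the rest of its genotype, so the groups overlapped. Without control pool 2 adjusted p was 0.0535, the closest to the threshold among its alternatives. Nrp1, the neuropilin of Sema3a and of vascular endothelial growth factor A, had intensities of 6328 to 8932 in homozygous pools and 5269 to 7497 in control pools, and differed by 0.32 ± 0.14 (SE; limma adjusted p = 0.320).

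The promoters of Nrp2, Epha5 and Sema4f are printed because these genes moved together from pool to pool, as described further on. Dcc and Plxna4 moved with them and their promoters are not printed, so the windows shown are only some of that group. Each printed window is the 250 bases before the start site in the same RefSeq table, with the TCF/LEF core in capitals. They lie at chr1:62703067-62703316, plus strand, at chr5:84417383-84417632, minus strand, and at chr6:82939770-82940019, minus strand. The Epha5 window lies wholly inside the outer bounds of its gene, chromosome 5, 84054761 to 84417818, and those of Nrp2 and Sema4f lie outside theirs.
Nrp2: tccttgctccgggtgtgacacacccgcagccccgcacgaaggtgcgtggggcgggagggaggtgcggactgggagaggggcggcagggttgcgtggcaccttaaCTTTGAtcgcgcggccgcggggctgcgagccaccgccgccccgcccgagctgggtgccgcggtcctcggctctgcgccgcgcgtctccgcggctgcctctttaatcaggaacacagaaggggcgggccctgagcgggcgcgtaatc
Epha5: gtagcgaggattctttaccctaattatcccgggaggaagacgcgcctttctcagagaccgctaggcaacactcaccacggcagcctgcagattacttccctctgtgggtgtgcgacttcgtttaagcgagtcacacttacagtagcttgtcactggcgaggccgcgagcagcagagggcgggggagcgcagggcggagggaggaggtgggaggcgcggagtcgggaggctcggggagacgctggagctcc
Sema4f: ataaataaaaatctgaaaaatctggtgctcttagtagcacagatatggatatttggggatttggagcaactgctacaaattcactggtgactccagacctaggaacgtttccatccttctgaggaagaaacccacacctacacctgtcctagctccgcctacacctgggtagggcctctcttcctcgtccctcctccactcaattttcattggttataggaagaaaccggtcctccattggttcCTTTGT
Nrp2 holds 1 core 146 bases before its start site, Sema4f holds 1 that starts 6 bases before it, and Epha5 holds none. The windows also differ in CpG dinucleotides, with 32 in Nrp2, 20 in Epha5 and 4 in Sema4f, against a median of 6 over all windows; both Sema6d windows, with 9 and 6, are near that median.

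Among the ephrin ligands 0 of 5 ephrin-A and 0 of 3 ephrin-B genes passed the threshold, and the largest difference in size was that of Efna1. Efna3, a lipid-anchored ligand of EphA receptors, had intensities of 278, 299, 271, 274 and 387 in homozygous pools 1 to 5, against 213, 248, 234, 240.4 and 244 in control pools 1 to 5. The groups did not overlap, but homozygous pool 5 stood well above the other homozygous pools, and the difference was 0.34 ± 0.12 (SE; limma adjusted p = 0.197), 1.27-fold; the second probe set differed by 0.53. Efna1, known from vessels, differed by -0.73 ± 0.36 (SE; limma adjusted p = 0.371), with 110.2 to 267 in homozygous pools and 135 to 454 in control pools; control pool 1 was the only control inside the homozygous range. Efna2 differed by 0.20 ± 0.094 (SE; limma adjusted p = 0.341), Efna5 by 0.10 ± 0.22 (SE) and Efna4 by 0.062 ± 0.23 (SE). Efnb2, the ephrin of arterial endothelium, was far above the floor in all pools, at 3525 to 6792 in homozygous pools and 4094 to 6478 in control pools, with a difference of 0.0071 ± 0.22 (SE) and a 95% interval of -0.49 to 0.51. Efnb1 differed by 0.031 ± 0.15 (SE) and Efnb3 by 0.051 ± 0.29 (SE), with 95% intervals of -0.30 to 0.36 and -0.61 to 0.72.

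Among the EphA receptors 0 of 9 passed, and the 2 with an unadjusted p under 0.05 were Epha6 and Epha5, which are both known from neurons. Epha6 had intensities of 39.2, 53.7, 49.6, 57.2 and 38.4 in homozygous pools 1 to 5, against 29.2, 21.2, 31.5, 26.3 and 32.97 in control pools 1 to 5. Every homozygous pool was above every control pool, with a difference of 0.75 ± 0.16 (SE; limma adjusted p = 0.0636), 1.69-fold. As for Unc5d, these are dim values from a single probe set; with a floor of 32 the difference was 0.55 and with quantile normalization 0.59, neither past the threshold. Epha6 passed with array weights (0.77, adjusted p = 0.0252) and in no other of its 23 alternatives. Epha5 had intensities of 153, 55.1, 319, 139 and 209.6 in homozygous pools 1 to 5, against 3.84, 164, 2.81, 76.4 and 36.4 in control pools 1 to 5. Its difference was the largest among the members, 1.88 ± 0.74 (SE; limma adjusted p = 0.257). Control pools 1 and 3 were under the floor and have no measured level there, so the size of this difference depends on the floor. Control pool 2 lay above 3 of the 5 homozygous pools, and the other 3 probe sets differed by 1.87, 1.51 and 0.92. Epha4 and Epha7, which in mice act in joining the nephric duct to the cloaca, differed by -0.29 ± 0.26 (SE) and -0.071 ± 0.20 (SE), and Epha3 by 0.27 ± 0.22 (SE). Epha2 differed by -0.33 ± 0.30 (SE). Epha1 (-0.38 ± 0.51 (SE)) and Epha8 (0.49 ± 0.48 (SE)) were at the floor on 1 and 2 arrays, and Epha10 was at the floor on all 10.

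The EphB receptors, which bind ephrin-B ligands, had 0 of 4 genes past the threshold and none with an unadjusted p under 0.05. Ephb4, the partner of Efnb2 on venous endothelium, differed by -0.13 ± 0.24 (SE), with a 95% interval of -0.66 to 0.40. Ephb3 differed by 0.10 ± 0.17 (SE) (-0.27 to 0.48) and Ephb1 by 0.020 ± 0.19 (SE) (-0.41 to 0.45). Ephb6, whose kinase domain is inactive, differed by -0.82 ± 0.56 (SE; limma adjusted p = 0.544); it was at the floor in homozygous pools 3 and 5 and in control pool 1, and between 34.6 and 87.0 on the other arrays. Without the 3 Xist-high pools, to which both of those homozygous pools belong, its difference was -0.036.

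In the Slit and Robo families 0 of 7 genes passed, and the 2 members with separate groups, Robo2 and Slit1, were both lower in homozygous pools. Robo2, the Slit receptor of the nephrogenic mesenchyme, lies at chromosome 16, 73891976 to 75447443 and has 1 probe set here. Its intensities were 192, 393, 263, 322 and 285 in homozygous pools 1 to 5, against 577, 442, 538, 434 and 534 in control pools 1 to 5. Homozygous pool 1 was the lowest and homozygous pool 2 came close to the controls; the difference was -0.83 ± 0.19 (SE; limma adjusted p = 0.0753), a level 0.564 times that of controls. It passed without homozygous pool 2 (-0.94, adjusted p = 0.0460) and with array weights (-0.81, adjusted p = 0.0388), and in no other of its 23 alternatives, over which adjusted p reached 0.539. With the neuron marker mean as a covariate its difference was -0.41 and with the smooth muscle mean -0.40, the neuron mean again not being cleanly separable from genotype. The nephron progenitor markers, whose cells are known to express Robo2, had a mean of 8.59 to 9.02 in homozygous pools and 8.77 to 9.79 in control pools; their part in the result was not tested. Slit1 had intensities of 84.4, 90.7, 93.6, 92.5 and 67.0 in homozygous pools 1 to 5, against 159, 94.9, 167, 154 and 104 in control pools 1 to 5, with control pool 2 closest to the homozygous pools. Its difference was -0.64 ± 0.20 (SE; limma adjusted p = 0.166), and its second probe set differed by -0.25. Slit2, the ligand paired with Robo2 in placing the ureteric bud, was far above the floor in all pools, at 2297 to 4538 in homozygous pools and 2278 to 3198 in control pools, and differed by 0.18 ± 0.19 (SE), with other probe sets at 0.38 and 1.06. Slit3 differed by 0.41 ± 0.25 (SE). Robo1 (-0.021 ± 0.23 (SE)) and Robo3 (-0.071 ± 0.23 (SE)) lay near 0, as did the endothelial receptor gene Robo4 (-0.13 ± 0.21 (SE)).

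**Figure D2:**
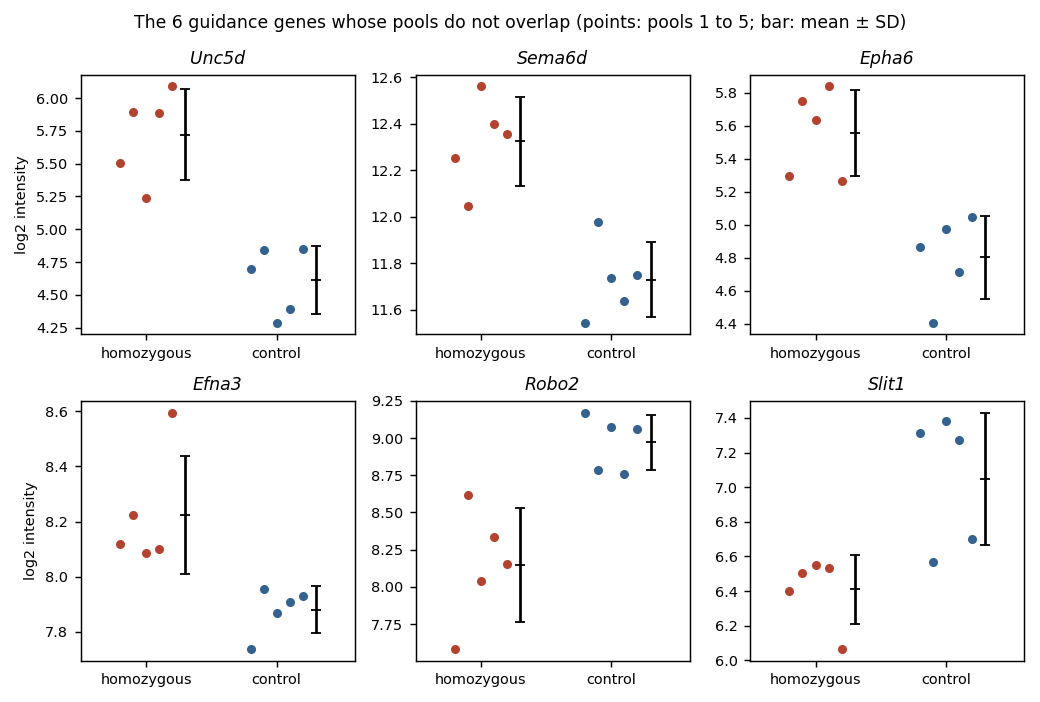
Log2 intensity in each of the 5 homozygous (left, red) and 5 control (right, blue) pools for the 6 guidance genes whose groups do not overlap, with bars for the mean and SD. Unc5d, Sema6d, Epha6 and Efna3 are higher and Robo2 and Slit1 lower in every homozygous pool, and only Unc5d and Sema6d pass the test.

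Neither netrin gene passed: Ntn1, the secreted ligand of Dcc and Unc5 receptors, differed by 0.33 ± 0.20 (SE; limma adjusted p = 0.474) and Ntn4, a netrin of basement membranes, by -0.32 ± 0.25 (SE; limma adjusted p = 0.604). Among the netrin receptors Unc5d was the 1 of 6 that rose. Dcc, the receptor that draws axons towards netrin 1, had intensities of 209.6, 132, 416, 586 and 439 in homozygous pools 1 to 5, against 100.1, 507, 80.3, 82.0 and 103 in control pools 1 to 5. Control pool 2 was the second highest of all 10 pools, while the other 4 controls lay below every homozygous pool; the difference was 1.29 ± 0.61 (SE; limma adjusted p = 0.352). Its other probe sets differed by 1.5 and 0.10. Unc5b, known from endothelium, differed by -0.35 ± 0.24 (SE), Unc5a by 0.37 ± 0.49 (SE) and Unc5c by -0.053 ± 0.25 (SE). Neo1, which encodes neogenin, a receptor of netrins and repulsive guidance molecules, differed by 0.18 ± 0.21 (SE).

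The 5 largest positive differences, those of Epha5, Nrp2, Sema4f, Dcc and Plxna4, came from genes whose levels varied widely within each genotype, and in the same pools. In all 5 genes homozygous pool 2 was the lowest of its genotype and control pool 2 the highest of its own. This ordering was noticed in these 5 genes after the values were seen. It held for 12 of 68 guidance genes (17.6%), these 5 among them, and for 4.05% of all genes. Pools tied at the floor could not count as lowest or highest. Some array was at the floor for 4786 of 18193 genes and for 8 of 68 guidance genes. Among genes with a log2 difference of at least 1 the ordering held for 5 of 6 guidance genes and 201 of 701 genes. Those 5 are the genes it was noticed in, so their share cannot be set against that of all genes. The smooth muscle marker mean had the same ordering, with homozygous pool 2 at 9.22 and the other 4 of its genotype at 10.5 to 12.1, and control pool 2 at 10.7 and the other 4 controls at 8.003 to 9.23. The neuron marker mean was also highest among controls in control pool 2, at 8.90, but homozygous pool 2, at 9.73, was not the lowest of its genotype. With the smooth muscle mean as a covariate the 5 differences were 0.28 for Epha5, 0.43 for Nrp2, 0.35 for Sema4f, 0.23 for Dcc and 0.62 for Plxna4. With the neuron mean they were -0.60, 0.53, 0.35, 0.21 and 0.55 in the same order, against 1.88, 1.47, 1.31, 1.29 and 1.14 with no covariate. The neuron mean did not overlap between the genotypes, so its fit cannot cleanly tell it from genotype. Whether cell content accounts for these differences was not tested. The smooth muscle covariate was chosen after seeing the data. Leaving out the 3 Xist-high pools gave 1.16 for Epha5, 0.94 for Nrp2, 0.90 for Sema4f, 0.38 for Dcc and 0.81 for Plxna4.

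**Figure D3:**
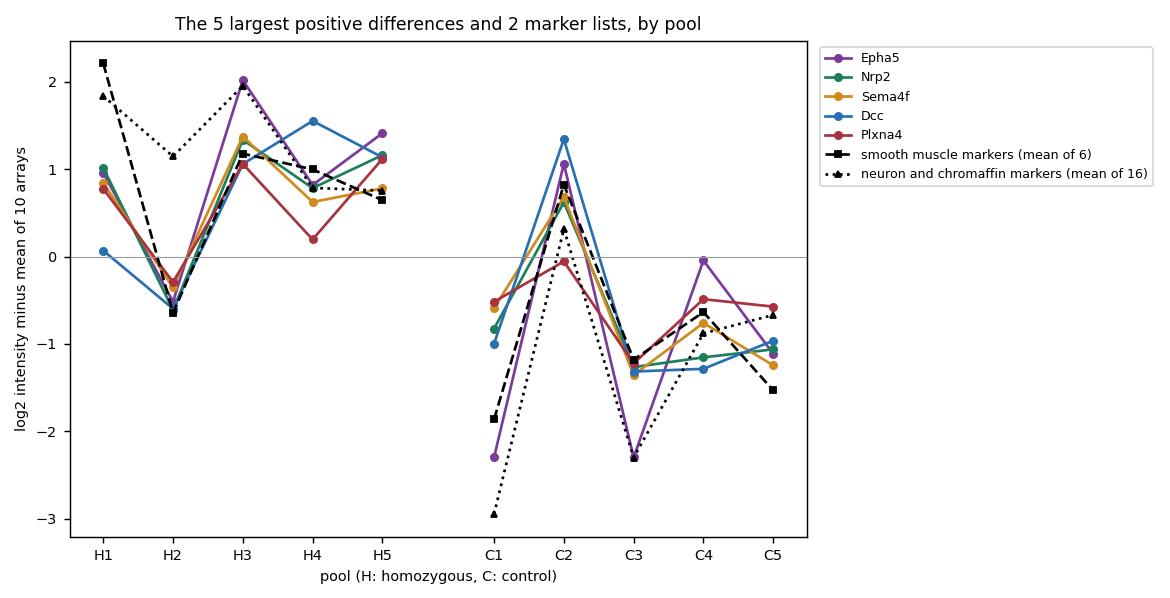
Log2 intensity of Epha5, Nrp2, Sema4f, Dcc and Plxna4 in each pool, minus the mean over 10 arrays, for homozygous pools (H1 to H5, left) and control pools (C1 to C5, right), with the means of the smooth muscle (dashed) and the neuron and chromaffin (dotted) markers. In each gene H2 is the lowest homozygous pool and C2 the highest control pool.

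On the 2 arrays of high actin ratio many guidance genes stood off their genotype in the same direction. Of the 60 members above the floor on every array, homozygous pool 5 and control pool 1 were the 2 lowest of all 10 pools for 13 (21.7%, against 18.9% of all such genes) and the 2 highest for 11 (18.3%, against 15.0%). Relative to the other 4 pools of its genotype, Sema6c was at -2.50 in homozygous pool 5 and at -2.80 in control pool 1 on the log2 scale, and Sema5a at -2.08 and -1.21. Unc5c was at 0.92 and 0.87. Across these 60 genes, which share the same 10 arrays and are not independent, the 2 deviations had a Pearson correlation of 0.74, compared with 0.61 across 13407 genes. The pooled SD within genotypes was largest for Sema6c, at 1.24, and smallest for Efna2, at 0.15, with a median of 0.37 over these guidance genes and of 0.32 over all such genes.

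**Figure D4:**
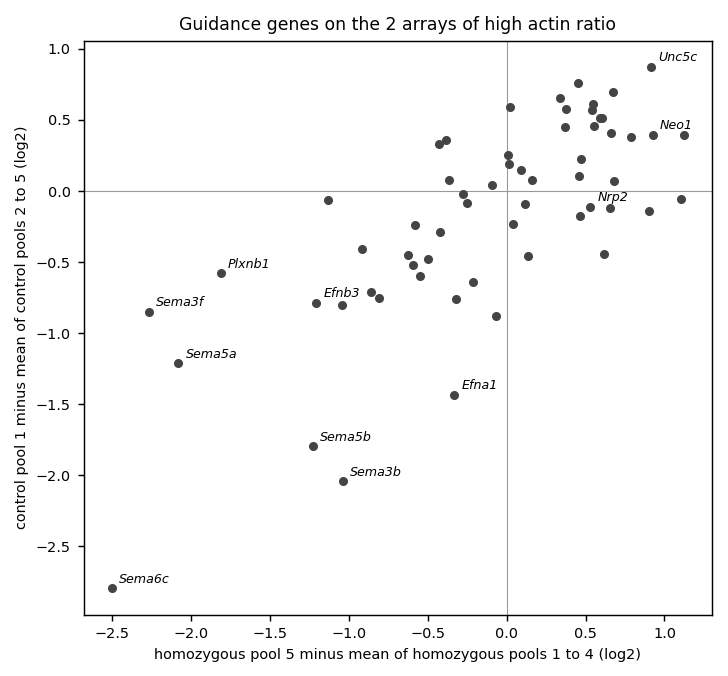
Each point is 1 of the 60 guidance genes above the floor on every array: its log2 level in homozygous pool 5 minus the mean of the other homozygous pools (horizontal) against control pool 1 minus the mean of the other control pools (vertical). Most genes lie in the lower left or upper right, with 47 of 60 on the same side of 0 on both axes, against 9812 of 13407 over all such genes, and Sema6c is the lowest on both.

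Probe sets of the same gene bear on how firmly a level is known. The 68 genes had 87 further probe sets, of which 48 were above the floor on all 10 arrays, and 34 of these 48 had the sign of the brightest one. The share over all genes was not computed. Probe sets of a gene are read on the same 10 arrays, so they do not add to the number of pools. All further probe sets of Nrp2, Epha5 and Sema6d, and the 1 of Plxna4, were positive like the brightest. That of Sema4f was positive too, but at 0.45 against 1.31 for the brightest. The 14 of opposite sign included probe sets of Efnb2 (-0.53), Neo1 (-0.36) and Efnb1 (-0.31), named here after their values were seen, and none passed in either direction.

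**Figure D5:**
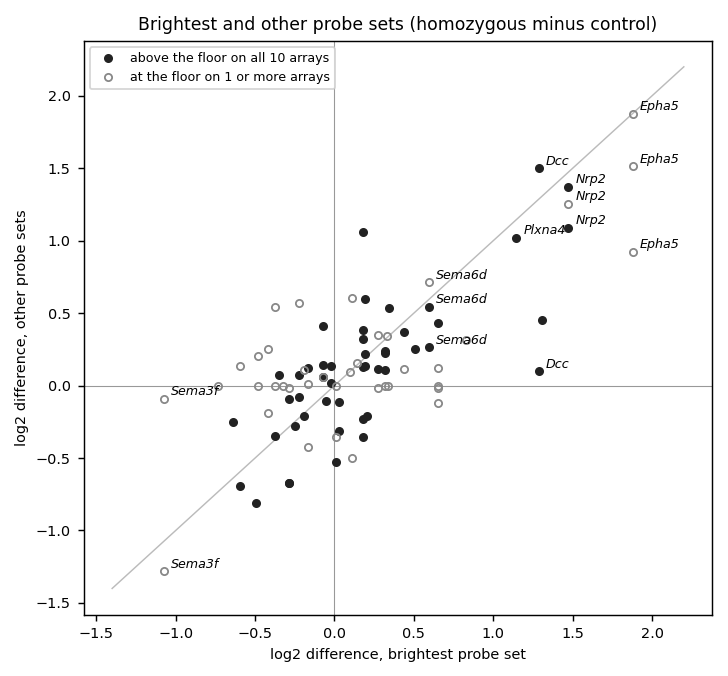
Log2 difference (homozygous minus control) of the brightest probe set of each guidance gene (horizontal) against that of its other probe sets (vertical), filled where all 10 arrays are above the floor and open otherwise; the diagonal marks equality. The probe sets of Nrp2, Epha5 and Plxna4 lie far from 0 together, while many dim probe sets lie on 0.

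A list of 60 further genes of guidance signalling, holding co-receptors, adhesion partners and cytoplasmic effectors, had 58 measured genes, and 0 passed limma; 15 (25.9%, against 15.7% of all genes) had an unadjusted p under 0.05. Differences were positive for 32 list genes and negative for 26, with a median of 0.089 over the list and 0 over all genes. The pools were separate for 4 list genes (6.9%, near the 4.71% of all genes), all lower in homozygous pools. Grb7, an adaptor that binds receptor tyrosine kinases including EphB1, had intensities of 214, 219, 129, 160.2 and 105 in homozygous pools 1 to 5, against 247, 454, 568, 639 and 493 in control pools 1 to 5. Every homozygous pool was lower, with a difference of -1.52 ± 0.30 (SE; limma adjusted p = 0.0558). Met, the receptor of hepatocyte growth factor that also associates with B-type plexins, had intensities of 879.5, 1177, 889, 1345 and 1122 in homozygous pools 1 to 5, against 2271, 1511, 2024, 1644 and 1619 in control pools 1 to 5. It too was lower in every homozygous pool, with a difference of -0.75 ± 0.16 (SE; limma adjusted p = 0.0633); both genes are also expressed by kidney epithelium. The mean of the 6 ureteric bud and collecting duct markers ran from 7.59 to 8.06 in homozygous pools and from 8.31 to 8.75 in control pools, and that of 8 proximal tubule markers from 7.89 to 8.602 and from 9.38 to 9.95; their part in these differences was not tested.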

How the data were processed

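RNA of 10 pools of mouse urogenital system was measured on Affymetrix arrays. The deposited intensities are on a linear scale, and their trimmed mean, without the highest and lowest 2% of values, was 500 on every array. How probes were summarized is not stated in the labels. Control probe sets, 64 of 45101, were removed; 34945 of the rest had 1 gene symbol in the platform annotation, 932 several and 9160 none. Identical values were found in 0 pairs of arrays. Each label names its own pool, so a p-value reflects variation from pool to pool.

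Intensities were floored at 16 and taken to log2, and each of 18193 genes was given its brightest probe set. The genotypes were then fitted as 2 groups with limma 3.58.1 under R 4.3.3 (eBayes with an intensity trend, two-sided, Benjamini-Hochberg over all genes, threshold 0.05), checked on simulated data. The number of arrays limits the precision. Coordinates and promoters are those of RefSeq for GRCm38.p6; 68 of 68 guidance genes matched by gene ID. Genes given most room follow a rule: those past the threshold, the 5 largest differences in each direction and the 2 smallest p-values of each family; the rest are named to account for every member. The members, gene lists and marker lists were chosen with earlier results of these data known. Marker lists covered neurons, glia, endothelium, skeletal and smooth muscle, adrenal cortex, 5 kidney compartments, bladder, testis and macrophages. The alternatives tried are given in the closing section.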

Additional observations from a re-analysis of the deposited data

Results flagged for a closer look

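Dixon's test was run on log2 intensities in 138 groups of 5 pools, each group being 1 gene in 1 genotype. In 22 groups it marked a pool as far from the other 4, and chance marks about 1 group in 20. The test was not run over all genes, so whether guidance genes were marked more often than others is not known. In homozygous pool 5, one of the arrays of high actin ratio, 7 guidance genes stood apart: Efna3 (8.59, the others 8.08 to 8.22), Efna5 (9.48, the others 10.21 to 10.39), Efnb3 (7.93, the others 9.002 to 9.33), Ephb1 (8.46, the others 7.84 to 8.001), Plxnb1 (7.43, the others 8.96 to 9.39), Sema4b (9.91, the others 9.19 to 9.36) and Sema5a (8.36, the others 10.16 to 10.61). In control pool 1, the other such array, 7 genes stood apart: Efna1 (7.08, the others 8.39 to 8.83), Ephb6 (4.00, the others 5.96 to 6.44), Nrp1 (12.87, the others 12.36 to 12.49), Plxnb2 (8.55, the others 9.11 to 9.21), Sema3b (5.48, the others 7.27 to 7.75), Sema6c (4.73, the others 7.40 to 7.75) and Unc5b (8.47, the others 9.05 to 9.29). In homozygous pool 2 there was Nrp2 (10.06, the others 11.46 to 12.01). In control pool 2 there were 4: Dcc (8.99, the others 6.33 to 6.68), Nrp2 (11.29, the others 9.41 to 9.85), Sema3a (10.13, the others 9.63 to 9.67) and Sema6b (4.21, the others all at the floor). In homozygous pool 1 there was Sema6b (4.47, the others all at the floor). In homozygous pool 3 there was Efna4 (6.12, the others 5.55 to 5.66). In homozygous pool 4 there was Plxna4os1 (4.13, the others all at the floor). Nrp2 was marked in both genotypes, low in homozygous pool 2 and high in control pool 2, the ordering described above for Epha5, Sema4f, Dcc and Plxna4. Plxna4os1 and Sema6b were marked because a single pool of the genotype was above the floor. Ephb6 was at the floor in control pool 1.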

How the results depend on the processing

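Of 725 values of 31 named genes under the alternatives, 656 kept their direction and side of the threshold, 36 values of Unc5d and Sema6d were no longer past it, 11 values of 5 genes passed it newly, and 22 values of 10 genes reversed; the causes were not tested. Over all genes the count past the threshold, 176, was 109 with the mean of a gene's probe sets, 82 when every probe set was fitted, 108 without the dimmest 60% of genes, 94 with a floor of 32, 951 with array weights, 23 without homozygous pool 5 and control pool 1, 28 without the 3 Xist-high pools, and 3 to 414 without 1 pool. With the neuron covariate it was 0 by limma (1814 at an unadjusted p under 0.05) and with the smooth muscle covariate, added after seeing the data, also 0 (1618). Guidance genes higher in homozygous pools, 2 in all, were 1 with the probe set mean, without the dimmest genes (Unc5d being among those left out), with a floor of 4 or with the endothelium covariate; they were 0 with every probe set, a floor of 32, quantile normalization, without the Xist-high pools, without homozygous pool 5 and control pool 1 (high actin ratio) or with the neuron or smooth muscle covariate, and 0 to 2 without 1 pool. With array weights they were 3, Epha6 being the third. Guidance genes lower, 0 in all, were 2 with array weights (Robo2 and Sema4d), 1 with the endothelium covariate (Sema4a) and 0 to 1 without 1 pool (Robo2, without homozygous pool 2). Signalling list genes, 0 in all, were 1 without the dimmest genes, with a floor of 4, with quantile normalization or with the endothelium covariate, 4 with array weights and 0 to 1 without 1 pool (1 without control pool 2). Pool numbers did not pair the samples: same-numbered pools deviated from their genotype means with correlations of -0.55 to -0.17, and 0 of 5 pools correlated best with its own number. With the replicate block 1 gene passed over all genes and 0 guidance genes higher, with no other guidance call to change. Reversed differences were, with the probe set mean, 0.10 for Wnt9b, -0.0026 for Efna2 and -0.13 for Efnb1. Without the Xist-high pools they were 0.029 for Wnt9b and 0.099 for Robo4. With the neuron covariate they were 0.33 for Wnt9b, -0.60 for Epha5, 0.12 for Sema4d, -0.26 for Ephb3, -0.74 for Efnb3, 0.25 for Ntn4 and -0.44 for Slit3. With the smooth muscle covariate they were 0.21 for Wnt9b, -0.28 for Efnb3 and -0.14 for Slit3. Without 1 pool the range was -0.43 to 0.086 for Wnt9b, -0.043 to 0.15 for Efnb1 and -0.11 to 0.29 for Efnb3. Signal over background limits Sema6b, Plxna4os1, Epha10 and other genes at the floor.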
